A study of Rattus norvegicus with 6 samples.

Results

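The genes of mitosis and chromosome segregation were examined in ShSuz12 and control IEC-6 cells. A list of 60 genes was taken, chosen with earlier results of these data known. A probe set belonged to it when its annotation gave exactly 1 symbol and that symbol was on the list. In this way 75 of 31042 tested probe sets were found, for 52 of the 60 genes, out of 14217 genes with such a probe set. No probe set was found for Cdc25c, Nek2, Ndc80, Kif4a, Tpx2, Ckap2, Anln and Ncapg. A gene with several probe sets was represented by the one with the highest mean over all arrays.

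The study asked what Polycomb Repressive Complex 2 (PRC2), which methylates lysine 27 of histone H3, does to gene expression in intestinal epithelial cells. IEC-6 is a non-tumorigenic rat cell line with features of undifferentiated small intestinal crypt cells. ShSuz12 cells carried a lentiviral short hairpin RNA (shRNA) against the PRC2 subunit Suz12, and control cells carried a lentivirus with a scrambled shRNA. Both were grown in DMEM with 5% fetal bovine serum and selected with puromycin, and RNA from 3 independent experiments per group was hybridized to 6 Affymetrix rat genome arrays. Each group was thus 1 selected population, with 1 shRNA against Suz12, and the infection had reached a minority of the cells before selection. How dense the cells were at RNA harvest is not given in the sources used.

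In dividing cells, cyclin B with Cdk1 starts mitosis, helped by Polo and Aurora kinases. Kinetochores, built on the centromere of each chromosome, then attach to spindle microtubules, and the spindle assembly checkpoint holds back the anaphase-promoting complex until all are attached. That complex then triggers the cleavage of cohesin, the ring that holds sister chromatids together, and the midzone of the spindle directs cytokinesis. The transcripts of most of these genes are at their highest in G2 and mitosis. They are therefore high in cultures with many dividing cells, such as crypt cells, the proliferating cells of the intestinal epithelium.

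Values are log2 scaled RMA values (robust multi-array average, 1 value per probe set and array). Fold changes are differences of log2 values, ShSuz12 minus control, over 3 arrays per group. Their standard error (SE) is the moderated one of limma, which draws on the variance of all probe sets as well as the probe set's own. Adjusted p is from limma with Benjamini-Hochberg adjustment over all tested probe sets, and a gene was called at an adjusted p under 0.05. Suz12 itself had values of 5.82, 5.77 and 5.91 in ShSuz12 cells, against 8.45, 8.55 and 8.77 in control cells, a fold change of -2.76 (SE 0.09, adjusted p = 2.78e-07). Ezh2, the methyltransferase of PRC2, had 8.52, 8.47 and 8.43 in ShSuz12 cells, against 9.04, 9.20 and 9.02 in control cells, a fold change of -0.61 (adjusted p = 2.25e-04). Both were lower on each ShSuz12 array than on any control array, as the labels say for Suz12.

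The arrays of a group correlated with r from 0.997 to 0.998 over all probe sets, and arrays of different groups with r of 0.979 to 0.980. The median of all probe sets was 6.26 to 6.27 on ShSuz12 arrays and 6.15 to 6.17 on control arrays, so the array medians were not level between the groups. Of 13 intestinal epithelial markers, 3 had a mean rank above the array median (Cdh1, Krt8 and Cdx2, the last above it in ShSuz12 cells and below it in control cells), and Epcam, Fabp2, Krt18 and Muc2 lay below the 20th percentile of the arrays. Their summed linear level, most of it Cdh1, was 4831 to 5017 in ShSuz12 cells and 7006 to 7873 in control cells. The markers moved both ways: Cdh1 (-0.76) and Krt8 (-0.41) fell, Lgr5 (3.59), Cdx2 (1.56) and Krt19 (1.19) rose, and 8 were not called. Fibroblast and smooth muscle markers, with 8 of 11 above the array median, summed to 41626 to 43329 in ShSuz12 cells and 29518 to 32186 in control cells. Of these 5 rose, among them Col3a1 (2.33), while Acta2 (-0.66) and Tagln (-0.35) fell and 4 were not called. All 5 leukocyte markers (113 to 120 in ShSuz12 cells, 127 to 130 in control cells) and all 4 endothelial markers (106 to 114 in ShSuz12 cells, 87.7 to 98.3 in control cells) were below the array median, with Ptprc and Pecam1 among those under the 20th percentile. The part of these shifts in the results that follow was not tested.

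Mitotic transcripts were lower in ShSuz12 cells in every role, each by a modest amount. Of the 52 measured genes 45 fell, 0 rose and 7 were not called, which is 86.5% lower against 23.3% of all 14217 genes (17.1% of all genes rose). With array medians subtracted, 50 members were lower and 0 higher, against 41.7% of all genes lower and 13.6% higher. That setting made the array medians equal, but it moved the median fold change of all genes from -0.05 to -0.15. By Student's t-test at an unadjusted p under 0.05, 47 members were lower and 0 higher, against 27.9% of all genes lower and 19.5% higher. The median fold change was -0.41 on the log2 scale, or 24.5% less on the linear scale, against -0.05 over all genes, and 51 of 52 genes had a value below 0. In RNA from whole cultures, fewer cells in G2 and mitosis and less of these transcripts per cell cannot be told apart. The study reported that ShSuz12 cells proliferated more than control cells under serum deprivation and grew denser after confluence. In confluent ShSuz12 cells it found more H3S10 phosphorylation, a mark of histone H3 that it links to proliferation. It also found more Ccnd2 and Ccnd3 protein and less Ccnd1 protein in confluent ShSuz12 cells. Whether RNA for the arrays was taken at that density is not given, and the relation to these transcripts was not tested.

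**Figure D1:**
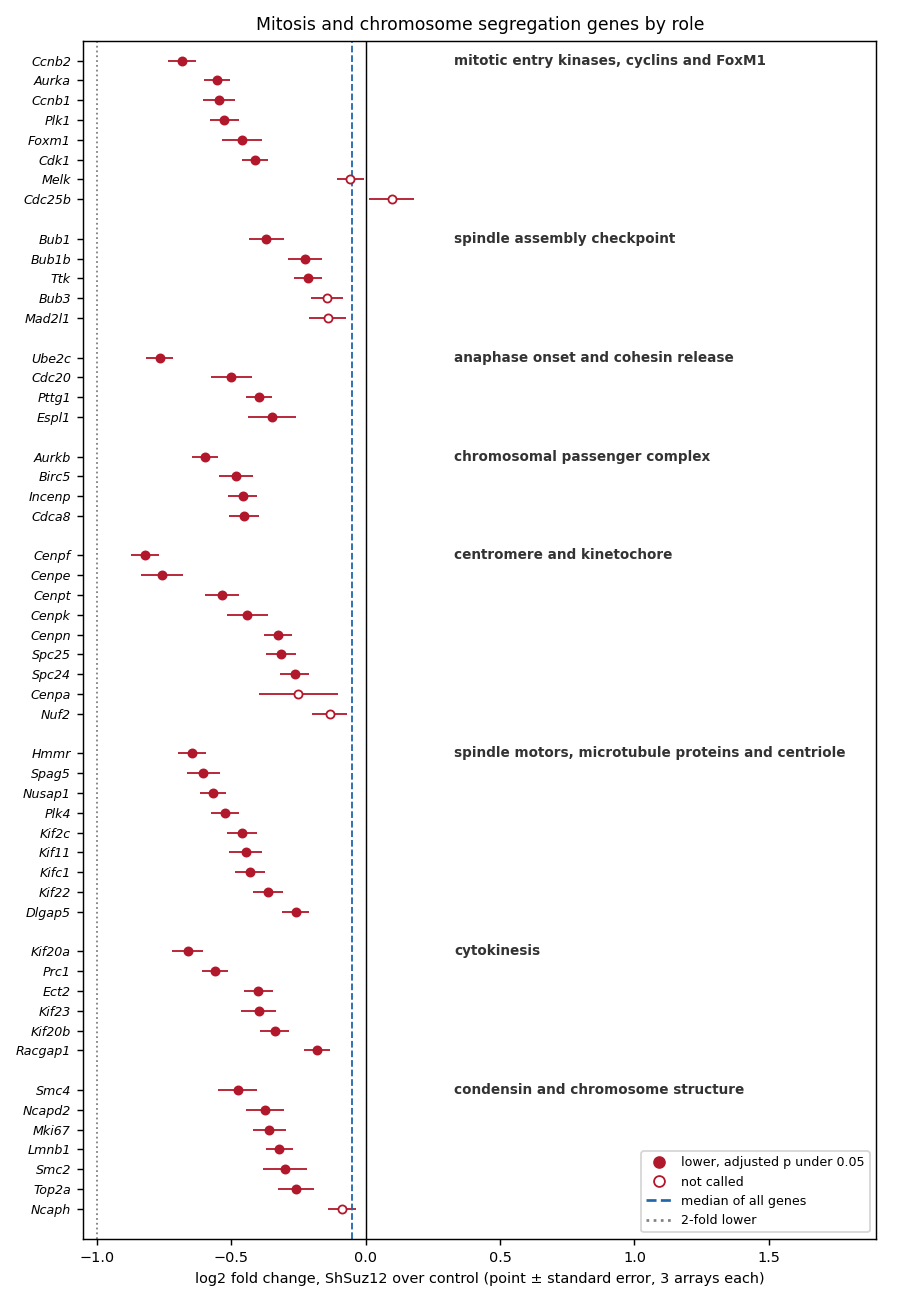
Log2 fold change (ShSuz12 over control, x axis) of each of the 52 measured genes, grouped by role, as the estimate ± moderated SE of limma, with 3 arrays per group. Filled points were called lower and open points were not called. All but Cdc25b, which is at 0.10 here and below 0 once array medians are subtracted, lie left of 0, with a median of -0.41, and none reaches the dotted line at 2-fold.

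The size of the change was narrow. The deepest fall at a brightest probe set, of Cenpf, was 43.4% on the linear scale, and 0 genes were at least 2-fold lower (0.422% of all genes) or higher (3.82% of all genes). The 8 members at least 1.5-fold lower (2.56% of all genes) were Cenpf, Ube2c, Cenpe, Ccnb2, Kif20a, Hmmr, Spag5 and Aurkb. On 47 of the 52 genes no ShSuz12 array reached the lowest control array, against 33.4% of all genes, and on 0 was the reverse true, against 22.2% of all genes. The 5 genes whose groups overlapped were Melk, Cdc25b, Mad2l1, Cenpa and Nuf2.

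Relative to its own mean over the 6 arrays, the median member lay at -0.18, -0.21 and -0.19 on the ShSuz12 arrays and at 0.18, 0.23 and 0.21 on the control arrays. On each ShSuz12 array 50 or 51 of the 52 genes were below their own mean, and on each control array 1 to 3 were. The fall was therefore shared by all 3 ShSuz12 experiments. These genes were also brightly detected, with a median percentile of 88.1 on the arrays. Among the 7866 genes above the 60th percentile, 34.1% fell, with a median of -0.09, while of the 51 members there 45 fell, with a median of -0.41.

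**Figure D2:**
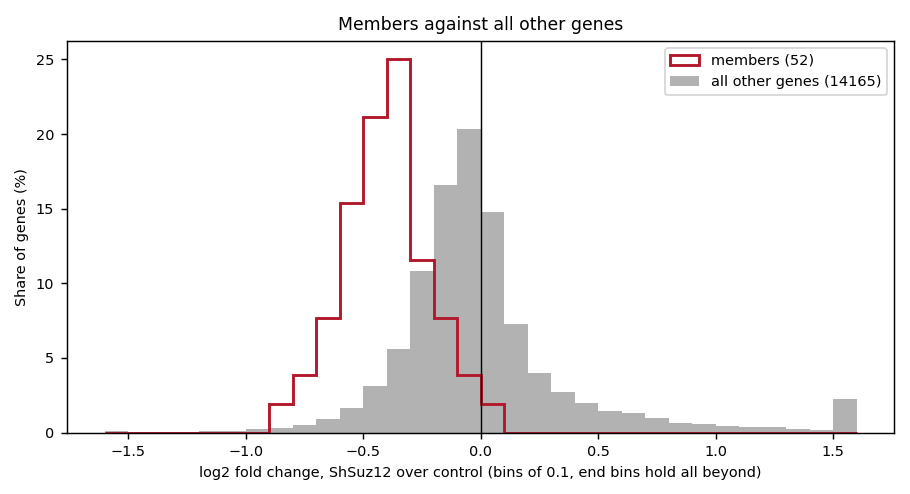
Share of genes (y axis, %) by log2 fold change (x axis, ShSuz12 over control, bins of 0.1) for the 52 members, outlined, and all other measured genes, filled. The members lie to the left of the main body of genes, between -0.82 and 0.10.

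Many promoters of G2 and mitosis genes carry a cell cycle genes homology region (CHR), the letters TTTGAA, which the MuvB complex binds, and CCAAT boxes, which NF-Y binds, whereas promoters of S phase genes more often carry E2F sites. These letters were searched on both strands in RefSeq promoters of the GRCr8 build, each with 250 bases before and 50 after a start site. A promoter was found for 53 of the 60 genes, 46 of them measured, and for 27457 genes in all. For Foxm1, Ube2c, Aurkb, Incenp, Cenpt, Tpx2 and Racgap1 no entry was found. The promoters shown are those of the most strongly lowered genes with both CHR and CCAAT (Cenpf and Ccnb2) and of those without CHR (Cenpe and Kif20a). Capitals mark CHR letters and CCAAT boxes, with ATTGG for a box on the other strand. The windows are chr13:103760837-103761136 (minus strand) for Cenpf, chr8:79981609-79981908 (minus strand) for Ccnb2, chr2:226310807-226311106 (plus strand) for Cenpe and chr18:26504172-26504471 (plus strand) for Kif20a.
Cenpf: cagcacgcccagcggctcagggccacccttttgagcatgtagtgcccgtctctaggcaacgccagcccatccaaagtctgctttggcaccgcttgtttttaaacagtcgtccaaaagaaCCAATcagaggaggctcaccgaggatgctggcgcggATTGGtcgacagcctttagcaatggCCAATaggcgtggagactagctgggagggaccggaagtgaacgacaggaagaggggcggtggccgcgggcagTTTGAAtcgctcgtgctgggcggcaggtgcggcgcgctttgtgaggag
Ccnb2: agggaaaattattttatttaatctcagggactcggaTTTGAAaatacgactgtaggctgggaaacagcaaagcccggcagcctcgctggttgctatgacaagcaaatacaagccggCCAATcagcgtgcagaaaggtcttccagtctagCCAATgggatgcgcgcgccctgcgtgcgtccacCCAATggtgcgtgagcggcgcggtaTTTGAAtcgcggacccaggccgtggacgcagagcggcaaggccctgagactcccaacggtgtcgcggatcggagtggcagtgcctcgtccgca
Cenpe: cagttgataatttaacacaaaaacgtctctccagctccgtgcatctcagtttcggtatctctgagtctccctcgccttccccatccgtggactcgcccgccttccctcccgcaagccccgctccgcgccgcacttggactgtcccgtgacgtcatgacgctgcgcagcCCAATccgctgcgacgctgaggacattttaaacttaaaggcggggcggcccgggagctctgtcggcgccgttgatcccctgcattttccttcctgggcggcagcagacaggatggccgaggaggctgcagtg
Kif20a: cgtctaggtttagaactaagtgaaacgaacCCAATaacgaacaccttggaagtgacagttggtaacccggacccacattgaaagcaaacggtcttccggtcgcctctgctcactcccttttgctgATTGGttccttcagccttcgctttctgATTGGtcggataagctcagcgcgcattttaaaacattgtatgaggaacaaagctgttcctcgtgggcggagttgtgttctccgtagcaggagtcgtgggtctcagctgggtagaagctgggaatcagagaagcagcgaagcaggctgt

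In the Ccnb2 promoter 3 CCAAT boxes began at positions -134, -101 and -68 from the start site, and CHR letters followed at -43, with another copy at -214. The Cenpf promoter had boxes at -131, -95 and -70 and its CHR letters at position 3, just after the start. Cenpe had 1 box, at -82. Kif20a had 3 boxes, at -220, -125 and -98. Neither of these last promoters held TTTGAA, and both held the variant TTTAAA.

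CHR letters were found in 37 of 53 member promoters (69.8%), against 19.4% of all genes in the promoter table, 13.3% of the measured genes and 12.8% of 39 DNA replication genes. CCAAT boxes were in 42 (79.2%), against 39.6% of all genes, 38.6% of measured genes and 61.5% of replication genes. E2F letters (TTCCCGC, the variant TTGGCGC or the variant TTCGCGC) were in 10 (18.9%), against 8.40% of all genes, 13.8% of measured genes and 69.2% of replication genes. Both CHR and CCAAT were in 31 member promoters (58.5%), against 7.96% of all genes, and at least 2 CCAAT boxes in 28 (52.8%), against 12.2%. CHR and CCAAT letters overlapped in 2 member promoters, and CCAAT and E2F letters in 1. A spacing of 31 to 33 bases between CCAAT boxes on the same strand, looked for after the positions had been seen, was found in 5 member promoters (9.43%) and in 0.783% of all genes. Ccnb1 (boxes at -82 and -50), Ccnb2, Cdk1 (-81 and -49) and Hmmr (-185 and -152) were the measured ones.

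**Figure D3:**
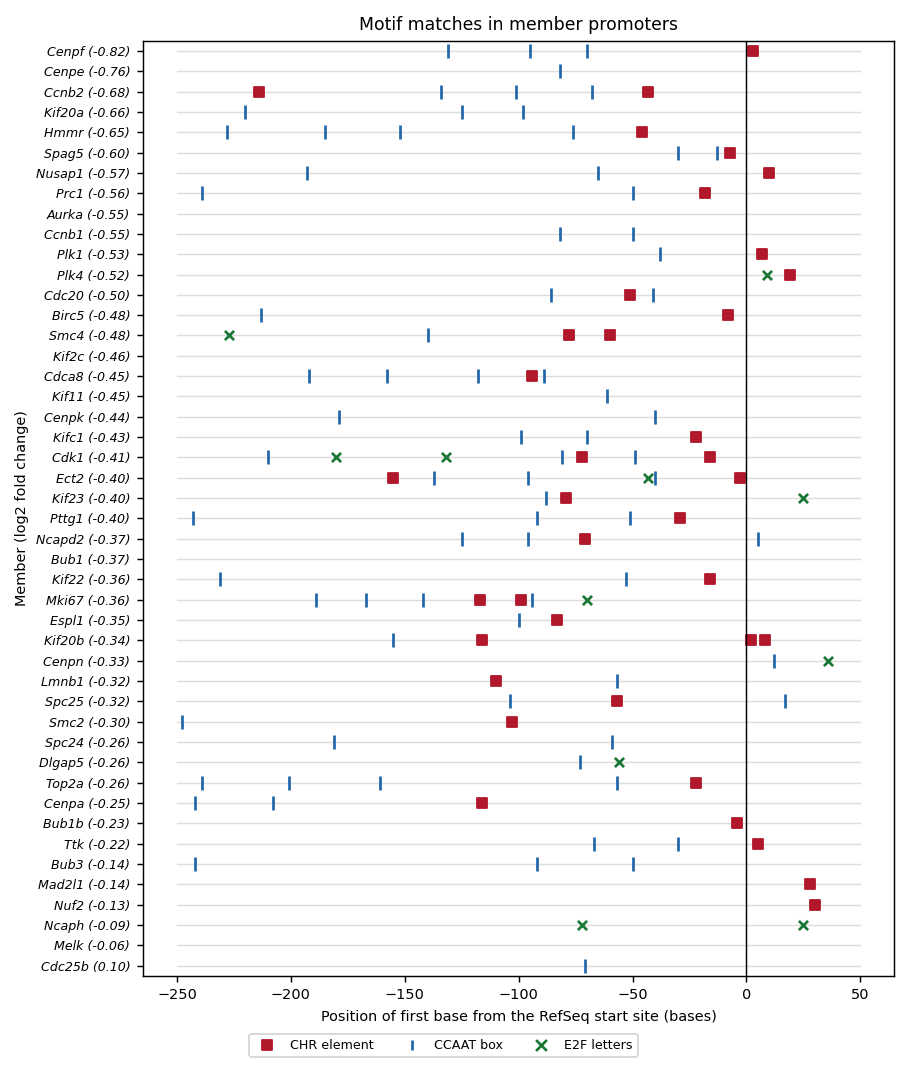
Position of each motif match (x axis, bases from the RefSeq start site) in the promoters of the 46 measured members with an entry, ordered by log2 fold change in parentheses; squares are CHR, bars CCAAT and crosses E2F letters. Of the 46 promoters, 31 hold CHR, at fold changes from -0.82 to -0.13, and 37 hold CCAAT, from -0.82 to 0.10.

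The fold changes of members with and without the letters were set side by side, with no test. The 31 measured genes with CHR had a median of -0.40 (28 called lower), and the 15 without it had -0.37 (11 called lower). With CCAAT the median was -0.40 over 37 genes (34 called lower), and without it -0.23 over 9 genes (5 called lower). With E2F letters and without them it was -0.40. Aurka, Bub1, Kif2c and Melk had no match of any of these motifs in the window, and 3 of these 4 fell. With the variant TTTAAA counted as CHR too, the 40 genes with it had a median of -0.41 (36 called lower). The 6 genes with neither TTTGAA nor TTTAAA had -0.20 (3 called lower). A match is a description of letters only, and a start site may differ from the one used in these cells. In 19 of 54 member windows the start site was the boundary of the gene in the RefSeq gene table. The start sites of the others were not traced further.

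Beside the counts by role that follow, 23.3% of all genes fell and 17.1% rose. Among 8 measured genes of mitotic entry, 6 fell and 0 rose, with a median of -0.49. Ccnb2, a B-type cyclin and partner of Cdk1, had values of 10.40, 10.40 and 10.32 in ShSuz12 cells, against 11.05, 11.08 and 11.05 in control cells. Its fold change was -0.68 (SE 0.05, adjusted p = 3.47e-05). Aurka, the Aurora kinase of centrosomes and spindle poles, had 9.05, 9.01 and 9.03 in ShSuz12 cells, against 9.59, 9.58 and 9.59 in control cells, a fold change of -0.55 (SE 0.05, adjusted p = 7.43e-05). For both genes the spread within a group was a small part of the distance between the groups. The Ccnb2 promoter shown above carried CHR and CCAAT letters, and that of Aurka neither. Also lower were the main mitotic cyclin Ccnb1 (-0.55) and the kinase Cdk1 (-0.41). So were the Polo kinase Plk1 (-0.53) and Foxm1 (-0.46), a transcription factor that drives G2 and mitosis genes. Not called were Cdc25b, a phosphatase that activates Cdk1, at 0.10 (adjusted p = 0.417), and the kinase Melk at -0.06 (adjusted p = 0.433), and the sign of each turned under another scaling. Their ShSuz12 and control values overlapped. With array medians subtracted, Melk was called lower, at -0.16 (adjusted p = 0.0401).

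The checkpoint genes had the smallest changes of any role by their median at the brightest probe sets, -0.22, and 3 of 5 fell. Bub1, a checkpoint kinase of the kinetochore, had 9.42, 9.30 and 9.36 in ShSuz12 cells, against 9.63, 9.82 and 9.72 in control cells, a fold change of -0.37 (SE 0.07, adjusted p = 0.00348). Bub1b, which encodes BubR1, a subunit of the complex that inhibits Cdc20, had 9.27, 9.26 and 9.10 in ShSuz12 cells, against 9.40, 9.44 and 9.46 in control cells. It fell by 0.23 (SE 0.06, adjusted p = 0.0252), with 1 ShSuz12 array clearly below the others. The call was lost without that array (adjusted p = 0.0755), control replicate 2 (0.0541) or control replicate 3 (0.0700), and after a second quantile normalization (0.0527). Ttk, the Mps1 kinase that starts checkpoint signalling, fell by 0.22 (adjusted p = 0.0147), and this call was lost without ShSuz12 replicate 2 (0.0542) or 3 (0.0509). At its dimmer probe set Ttk fell by 0.37 (adjusted p = 0.0158). Bub3, the Bub1 partner, at -0.14 (adjusted p = 0.0996), and Mad2l1, which encodes the checkpoint protein Mad2, at -0.14 (adjusted p = 0.158), were not called.

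All 4 genes of anaphase onset fell, with a median of -0.45. Ube2c, the ubiquitin-conjugating enzyme of the anaphase-promoting complex, had 10.42, 10.45 and 10.37 in ShSuz12 cells, against 11.19, 11.17 and 11.18 in control cells. This was a fold change of -0.77 (SE 0.05, adjusted p = 1.61e-05), with control arrays that differed by 0.01 (SD). Cdc20, which activates the anaphase-promoting complex, had 8.86, 8.94 and 9.06 in ShSuz12 cells, against 9.55, 9.34 and 9.47 in control cells, a fold change of -0.50 (SE 0.08, adjusted p = 0.0015). The groups stayed apart for Cdc20, though more loosely than for Ube2c. Pttg1 (securin, the inhibitor of separase) fell by 0.40. Espl1 (separase, which cuts cohesin) fell by 0.35 (adjusted p = 0.0178). The call of Espl1 was lost without ShSuz12 replicate 1 (adjusted p = 0.0613), ShSuz12 replicate 2 (0.0570) or control replicate 1 (0.0505).

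**Figure D4:**
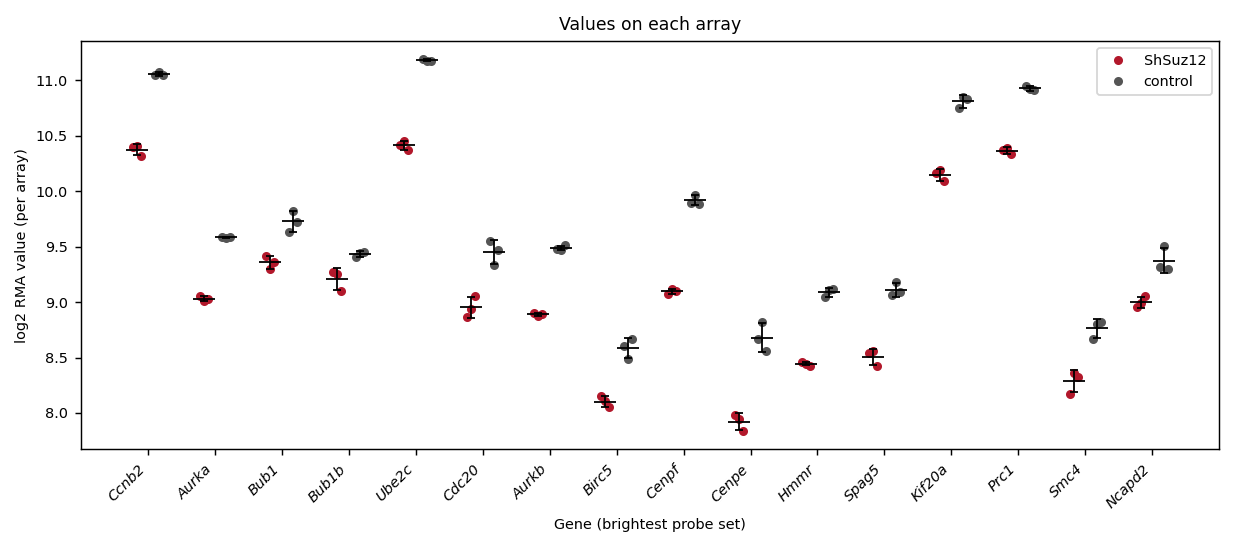
Log2 RMA value (y axis) on each array for the 2 most strongly lowered called genes of each role, ShSuz12 left of control; points are arrays and bars show the mean ± SD of 3 arrays. For each gene all ShSuz12 points lie below all control points, closest for Bub1b (9.27 on the highest ShSuz12 array, 9.40 on the lowest control array).

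The chromosomal passenger complex, which corrects faulty attachments and later acts in cytokinesis, was lower in all 4 of its subunits, by similar amounts (-0.60 to -0.45). Its kinase Aurkb had 8.90, 8.87 and 8.90 in ShSuz12 cells, against 9.48, 9.47 and 9.51 in control cells, a fold change of -0.60 (SE 0.05, adjusted p = 5.09e-05). Birc5 (survivin), which targets the complex to the centromere, had 8.15, 8.11 and 8.05 in ShSuz12 cells, against 8.60, 8.49 and 8.66 in control cells, a fold change of -0.48 (SE 0.06, adjusted p = 6.64e-04). Both genes were separated between the groups. The scaffold Incenp (-0.46) and Cdca8, or borealin (-0.45), were lower as well.

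At the centromere and kinetochore 7 of 9 genes fell, with a median of -0.33 and values from -0.82 to -0.13. Cenpf, a large protein of the outer kinetochore, had 9.07, 9.12 and 9.10 in ShSuz12 cells, against 9.90, 9.97 and 9.89 in control cells. Its fold change of -0.82 (SE 0.05, adjusted p = 1.21e-05) was the most negative of all members at their brightest probe sets. Cenpe, a kinetochore motor that moves chromosomes to the spindle equator, had 7.99, 7.94 and 7.84 in ShSuz12 cells, against 8.66, 8.82 and 8.56 in control cells, a fold change of -0.76 (SE 0.08, adjusted p = 1.80e-04). These 2 proteins of the outer kinetochore thus stood below the rest of the group, and their promoters, shown above, differ in the CHR letters. Of the inner, constitutive centromere proteins, the called genes were Cenpt (-0.54), Cenpk (-0.44) and Cenpn (-0.33), all lower. Subunits of the Ndc80 complex, which binds microtubules, had smaller values: Spc25 (-0.32) and Spc24 (-0.26) fell, and Nuf2 was not called at -0.13 (adjusted p = 0.155). Cenpa, the centromeric histone H3 variant, had 5.82, 5.66 and 5.63 in ShSuz12 cells, against 5.70, 5.83 and 6.32 in control cells. It was not called at -0.25 (adjusted p = 0.236) and had the largest SE of the members, 0.15, and it was the 1 member below the array median.

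All 9 measured spindle genes fell, from -0.65 to -0.26, with a median of -0.46. Hmmr, a microtubule protein of spindle poles, had 8.46, 8.45 and 8.43 in ShSuz12 cells, against 9.04, 9.11 and 9.12 in control cells, a fold change of -0.65 (SE 0.05, adjusted p = 4.13e-05). Spag5 (astrin), which acts in spindle pole integrity and attachment, had 8.54, 8.56 and 8.42 in ShSuz12 cells, against 9.06, 9.18 and 9.09 in control cells, a fold change of -0.60 (SE 0.06, adjusted p = 1.79e-04). Neither gene had overlapping groups. Next came the spindle assembly protein Nusap1 (-0.57), Plk4 (-0.52), the kinase of centriole duplication, and the microtubule-depolymerizing kinesin Kif2c (-0.46). Kif11 or Eg5 (-0.45) pushes spindle poles apart, Kifc1 (-0.43) is a minus-end motor, Kif22 (-0.36) is a kinesin of chromosome arms and Dlgap5 (-0.26) stabilizes spindle microtubules.

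All 6 measured cytokinesis genes fell too, with a median of -0.40. Kif20a, a kinesin of the central spindle, had 10.17, 10.19 and 10.09 in ShSuz12 cells, against 10.75, 10.85 and 10.83 in control cells, a fold change of -0.66 (SE 0.06, adjusted p = 6.88e-05). Prc1, which bundles the midzone microtubules, had 10.37, 10.39 and 10.33 in ShSuz12 cells, against 10.95, 10.92 and 10.91 in control cells, a fold change of -0.56 (SE 0.05, adjusted p = 7.94e-05). For both genes the highest ShSuz12 array was well below the lowest control array. The centralspindlin kinesin Kif23 (-0.40), the kinesin Kif20b (-0.34) and Ect2 (-0.40), the exchange factor that activates RhoA at the cleavage site, were lower too. Racgap1, the partner of Kif23, fell by 0.18 (adjusted p = 0.0215), the smallest called change among the members at their brightest probe sets. Its call was lost without ShSuz12 replicate 2 (adjusted p = 0.0699), ShSuz12 replicate 3 (0.0675) or control replicate 3 (0.0508). At its dimmer probe set Racgap1 fell by 0.26 (adjusted p = 0.0225).

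Among genes of condensin and chromosome structure, 6 of 7 fell, with a median of -0.32. Smc4, a core ATPase of condensin, had 8.17, 8.36 and 8.32 in ShSuz12 cells, against 8.66, 8.80 and 8.82 in control cells, a fold change of -0.48 (SE 0.07, adjusted p = 0.0014). Ncapd2, a condensin I subunit, had 8.95, 8.99 and 9.05 in ShSuz12 cells, against 9.31, 9.51 and 9.30 in control cells, a fold change of -0.37 (SE 0.07, adjusted p = 0.00423). The groups were separate for both. Smc2, the other core ATPase, fell by 0.30 (adjusted p = 0.0221), a call lost without ShSuz12 replicate 2 (0.0718), control replicate 2 (0.0589) or control replicate 3 (0.0725). The kleisin subunit Ncaph was not called at -0.09 (adjusted p = 0.227), although its groups did not overlap. Mki67 (-0.36), the Ki-67 protein that coats mitotic chromosomes, and the nuclear lamina gene Lmnb1 (-0.32) were lower. Top2a, the topoisomerase that untangles sister chromatids, fell by 0.26 (adjusted p = 0.0169), a call lost without ShSuz12 replicate 1 (0.0583) or 2 (0.0553). Its other probe set, of a kind that can match several transcripts, fell by 0.38 (adjusted p = 0.00116).

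Different probe sets of a gene mostly gave the same direction. Of all 75 probe sets 62 were lower, 0 higher and 13 not called, against 19.5% lower and 14.8% higher of all tested probe sets, and 74 had a value below 0. In 17 genes with several probe sets (40 in all) every value was below 0, and 11 of these genes had all of theirs called lower. Calls differed among the probe sets of Cdc20, Cenpt, Incenp, Lmnb1 and Mad2l1, in no case in opposite directions. Foxm1 had -0.46 at its brighter probe set and -0.96 at the other, both called (the dimmer with 5.72, 5.60 and 5.81 in ShSuz12 cells, against 6.50, 6.75 and 6.75 in control cells). Mad2l1, not called at its brightest probe set, fell by 0.37 at another (adjusted p = 0.00286). Cenpt fell by 0.54 at a bright probe set and was at -0.01 (adjusted p = 0.964) at one near the bottom of the arrays. That bright Cenpt probe set, the brightest of Cdc20 and the only one of Espl1 have identifiers of a kind that can match several transcripts. Without such probe sets Cdc20 was at -0.17 (adjusted p = 0.15) and Cenpt at -0.01 (adjusted p = 0.964), each at a dim probe set. Espl1 then had no probe set, and 42 of 51 genes were lower, against 23.3% of all genes. Another dim probe set of Cdc20, of the plain kind, was called lower at -0.36 (adjusted p = 0.0342).

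Of 100 other measured mitosis genes 59 fell and 3 rose, against 23.3% lower and 17.1% higher of all genes. Their median was -0.26, less negative than that of the members. In the centromere and kinetochore list 15 of 20 fell and 0 rose, led by Cenpq, of the inner centromere (-0.43), and Ska2, of the complex that follows microtubule tips (-0.38). In the checkpoint and anaphase-promoting complex list 12 of 18 fell and 0 rose, led by the activator Fzr1 (-0.42) and the inhibitor Fbxo5 (-0.39). Of 28 spindle, centrosome and cytokinesis genes 16 fell and 2 rose, and the most lowered were Fam83d, which recruits a kinase to the spindle (-0.90), and Troap, an astrin partner (-0.58). The 2 that rose, both microtubule genes, were Nedd1 (0.47, adjusted p = 0.0343) and Clasp2 (0.27, adjusted p = 0.0122). The call of Nedd1 was lost without ShSuz12 replicate 2 or 3 or any single control replicate (adjusted p from 0.0647 to 0.110), with array medians subtracted (0.0544) and by the methods' t-test, with p adjusted (0.155) or not. That of Clasp2 was lost with array medians subtracted (adjusted p = 0.0591) or with its probe sets averaged (0.564). Condensin II had 2 of 3 subunits lower, Ncapg2 (-0.46) and Ncaph2 (-0.31).

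Of 15 genes of the core, loading and protection of cohesin 5 fell (33.3%) and 1 rose, with a median of -0.12, nearer to that of all genes. Of all genes 23.3% fell and 17.1% rose, and of genes above the 60th percentile 34.1% fell. The ring subunit Smc3 fell by 0.24 (adjusted p = 0.011), while the ring subunits Smc1a at -0.12 (adjusted p = 0.248) and Rad21 at -0.10 (adjusted p = 0.206) were not called. With array medians subtracted, both were called lower (adjusted p = 0.0382 for Smc1a and 0.0216 for Rad21). The most lowered were Esco2, which acetylates cohesin in S phase (-0.58, adjusted p = 1.58e-04), and Sgo1 (shugoshin), which protects centromeric cohesin (-0.48, adjusted p = 2.70e-04). Hdac8, the cohesin deacetylase, rose by 0.26 (adjusted p = 0.0085). Of 16 genes of entry and exit 9 fell and 0 rose: the kinase Nek7, with 10.66, 10.62 and 10.68 in ShSuz12 cells, against 11.78, 11.74 and 11.71 in control cells, fell by 1.09 (adjusted p = 2.28e-06). Ccna2, cyclin A2, fell by 0.83 (adjusted p = 1.97e-04). Nek7 was the 1 gene of these lists that fell at least 2-fold.

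**Figure D5:**
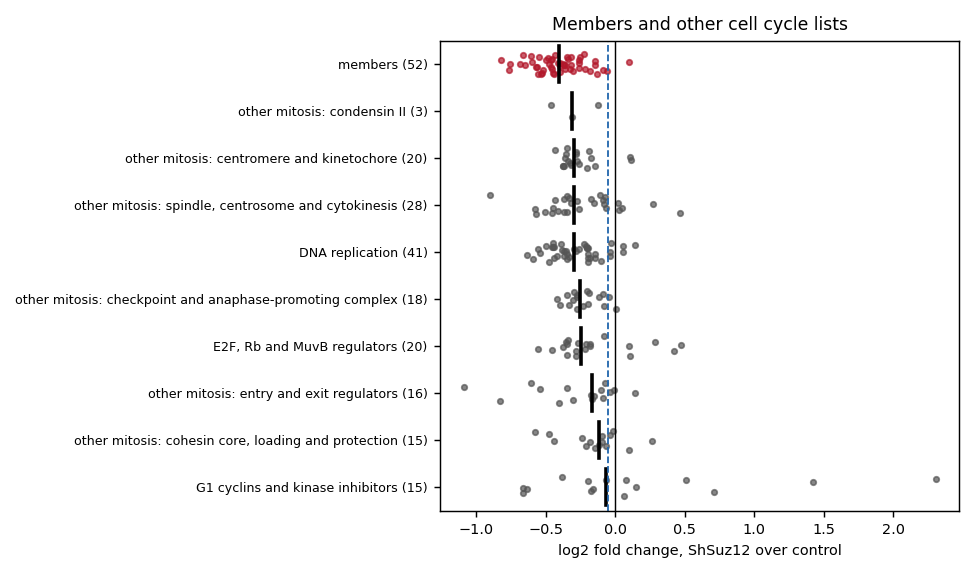
Log2 fold change (x axis, ShSuz12 over control) of the members, top row, and of genes of 9 other cell cycle lists; each point is a gene, the black bar is the median of the list and the dashed line the median of all genes (-0.05). The members have the lowest median of the lists shown (-0.41), and G1 genes the highest (-0.06). Members and lists were chosen with earlier results of these data known.

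Genes of DNA replication fell as well, 31 of 41 with 0 higher, against 23.3% lower and 17.1% higher of all genes. Their median was -0.29. They were led by Rpa1, a single-strand binding protein (-0.64), and Orc1, of the origin recognition complex (-0.59). Of 20 E2F, Rb and MuvB regulators 14 fell and 2 rose, with a median of -0.24. The most changed were E2f5, an E2F that binds Rb family members (-0.55), and Rb1, the retinoblastoma protein that restrains E2F (0.47, adjusted p = 4.10e-04). Genes of G1 had no common direction, with 5 of 15 lower (33.3%), 4 higher and a median of -0.06. Their largest changes were upward, in Cdkn1c, the kinase inhibitor p57 (2.31, adjusted p = 3.52e-06), and in Ccnd2, cyclin D2 (1.42, adjusted p = 7.67e-06).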

How the data were processed

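RNA was measured on 6 arrays, 3 ShSuz12 and 3 control. The authors ran RMA in FlexArray (version of RMA not found in the sources used) and deposited log2 values, used here as they are. RMA normalizes the arrays to each other, but the medians of the deposited values were still higher on ShSuz12 arrays. The median fold change over all probe sets was -0.05, of the opposite sign. Subtracting array medians lowered every fold change by the same amount. After 57 control probe sets were left out, limma 3.58.1 (lmFit and eBayes, two-sided, no covariates) was fitted to 31042 in R 4.3.3, and was tested on simulated data. With so few arrays the precision is limited, and an exact test of 3 against 3 could not go below p = 0.1. By the platform annotation 20826 probe sets had 1 symbol, 436 several and 9780 none; 2 with several, which included Anln and Ckap2, were left out. Deviations of same-numbered arrays from their group means correlated at 0.017, -0.042 and -0.064, so no shared effect of replicate number was seen. Whether same-numbered experiments were run in parallel is not given in the sources used.

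The members and lists were chosen with earlier results of these data known. Per-array values are given for Suz12, Ezh2 and the 2 most lowered called members of each role, and in other lists the 2 called genes with the largest change are named. Cenpa, Foxm1 and Nek7 (per-array values), Nedd1, Clasp2, Hdac8, Smc3, Smc1a and Rad21 were added after their values were seen. Alternatives were the methods' t-test, a trend with robust prior, 2 scalings, 2 percentile filters, the replicate block, leaving out each array or multi-transcript probe sets, gene means, a 1.5-fold limit and other motif windows and letters.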

Additional observations from a re-analysis of the deposited data

How the results depend on the processing

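Over the 16 other settings of test, scaling, filter and samples, 0 members were called higher in any. The count of lower genes ran from 40 to 50 (45 as reported), while 17.9% to 41.7% of all genes were lower. In every setting that measured them, 38 of 52 genes kept their call and direction. The filter at the 60th percentile left out Cenpa, and leaving out multi-transcript probe sets left out Espl1. Signs turned in uncalled genes only, Cdc25b at -0.0048 with array medians subtracted and Melk at 0.0013 after a second quantile normalization. Melk, Bub3, Mad2l1, Nuf2 and Ncaph gained a call of lower once array medians were subtracted. Bub3, Mad2l1 and Ncaph gained it in other settings too. With array medians subtracted, 50 members were lower and the member median was -0.51, while the median of all genes was -0.15 (a shift of 0.10) and 41.7% of all genes were lower and 13.6% higher; the distance between members and all genes stayed at -0.35. A second quantile normalization gave a member median of -0.37 and 44 lower genes (Bub1b lost its call), with 23.9% of all genes lower. Leaving out 1 array gave 40 to 44 lower genes and medians of -0.42 to -0.39, with 17.9% to 20.6% of all genes lower. With the replicate number as a block, 43 members were lower (Bub1b and Racgap1 lost their call), and 19.9% of all genes. The methods' t-test called 47 members lower without adjustment (27.9% of all genes) and 41 after it (19.5% of all genes). Bub1b, Espl1, Smc2 and Top2a lost their call after adjustment. At 1.5-fold in place of 2-fold, 8 members were lower, against 2.56% of all genes. With TTTGAA or TTTAAA as CHR, 86.8% of member promoters held it, against 29.6% of all genes; within the 150 bases nearest the start TTTGAA was in 62.3%, against 8.89%. The number of arrays limits what could be detected of the smallest changes.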

Other observations

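The G1 regulators, which did not move together, held pairs of related genes that moved apart. These genes were picked after their values were seen. Ccne1, cyclin E1, had 7.13, 7.48 and 7.26 in ShSuz12 cells, against 6.63, 6.60 and 6.50 in control cells, a rise of 0.71 (adjusted p = 5.76e-04 from limma). Ccne2, cyclin E2, had 9.47, 9.37 and 9.49 in ShSuz12 cells, against 10.05, 10.09 and 10.20 in control cells, and fell by 0.67 (adjusted p = 1.11e-04). Both act with Cdk2 at the start of S phase, and the groups did not overlap for either. Among kinase inhibitors, Cdkn2c (p18) fell by 0.64 (adjusted p = 6.04e-05) and Cdkn2d (p19) fell by 0.66 (adjusted p = 2.55e-04). Cdkn2b was lower too, at -0.20 (adjusted p = 0.0213), while Cdkn1a (0.51, adjusted p = 0.00307) and Cdkn1c rose. Cdkn1b (p27) was not called at 0.08 (adjusted p = 0.323), nor was the cyclin Ccnd1 at -0.16 (adjusted p = 0.194). The study's semi-quantitative PCR of reverse-transcribed RNA, on confluent cells, instead found Cdkn1b expression lost and Ccnd1 lower. It found Ccnd2, Cdkn1a and Cdkn1c higher. In the E2F list, E2f1 fell by 0.46 (adjusted p = 9.21e-04), whereas Tfdp2, a partner of E2F proteins, rose by 0.42 (adjusted p = 0.00274). Wee1, the kinase that holds Cdk1 inactive before mitosis, had 8.56, 8.54 and 8.56 in ShSuz12 cells, against 9.26, 9.11 and 9.10 in control cells, a fold change of -0.61 (adjusted p = 1.47e-04).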
